A study of Mus musculus with 12 samples.

Results

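The SLAM (signalling lymphocytic activation molecule) family receptors and their SH2-domain adaptors were followed in mouse natural killer (NK) cells sorted by an interferon gamma reporter. The members were the 9 genes, of 55487 features in the deposited table, whose symbol was Slamf1, Slamf6, Slamf7, Ly9, Cd84, Cd48, Sh2d1a, Sh2d1b1 or Sh2d1b2. Of these, 8 passed the filter on low values (log2 CPM above 0 in at least 4 samples) and were tested. Slamf1, with 0 to 6 reads per library, did not pass and was not tested. All 12 samples came from the strain B6.129S4-Ifngtm3.1Lky/J with the genotype mut/mut, in which a yellow fluorescent protein (YFP) is made from the Ifng gene, so every group carries the reporter and none is wild type. The cells had been given IL-15 ("HD IL-15" in the sample titles). Each group holds 4 samples: cells left without stimulation, and cells exposed for 6 h to anti-NK1.1, an antibody against an activating NK receptor, and then sorted as YFP- or as YFP+. The samples of a group are named f2, m2, m3 and m4. Whether samples of one name share a mouse, whether mice were pooled and how old they were is not in the labels, so p-values measure the spread between these samples, which may be technical in part. Sorting by YFP selects cells on Ifng itself, and YFP- and YFP+ cells differ by that selection, not by treatment.

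SLAM family receptors are cell-surface immunoglobulin-like molecules of blood cells. Most bind the same molecule on a neighbouring cell, while CD48, which is held in the membrane by a lipid anchor, binds CD244 and, in mice, CD2. Tyrosine motifs in the tails of the receptors recruit small adaptors with an SH2 domain: SAP (Sh2d1a), which brings in the kinase Fyn, and EAT-2 (Sh2d1b1) with its relative ERT (Sh2d1b2). Without adaptors, the same tails can recruit the inhibitory phosphatases SHP-1 (Ptpn6), SHP-2 (Ptpn11) and SHIP-1 (Inpp5d). In humans, loss of SAP causes X-linked lymphoproliferative disease, with a defect in the killing of virus-infected B cells by NK cells.

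All 6 member receptors lie in a cluster on chromosome 1, which also holds Cd244a, the CD48 receptor, and runs over 394 kb from the start of Cd244a to the end of Slamf6 (GRCm38). The order by position was Ly9 (chr1:171588624-171607410), Slamf7 (chr1:171632403-171653035), Cd48 (chr1:171682009-171705258), Slamf1 (chr1:171767127-171801184), Cd84 (chr1:171839697-171890718) and Slamf6 (chr1:171917515-171953170). Sh2d1b2 (chr1:170232749-170253608) and Sh2d1b1 (chr1:170277320-170286769) lie 23.7 kb apart, and Sh2d1b1 ends 1272 kb before the cluster. Sh2d1a is on the X chromosome (chrX:42502453-42529330).

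Promoter windows of 300 bases, from 250 before to 50 after the start site, were taken from RefSeq (GRCm38.p6), which matched 7 of the 9 members. Ly9 and Sh2d1a had no entry. The sequences of 4 members are shown because they pair near-identical promoters with unequal RNA levels (Sh2d1b1 and Sh2d1b2), and an abundant receptor with one that had almost no reads (Slamf7 and Slamf1). Each is written 5′ to 3′ on the gene's strand, with capitals for matches to the AP-1 motif TGANTCA, bound by the Fos and Jun factors that follow activation of lymphocytes:
Sh2d1b1 (chr1:170277068-170277367, plus strand): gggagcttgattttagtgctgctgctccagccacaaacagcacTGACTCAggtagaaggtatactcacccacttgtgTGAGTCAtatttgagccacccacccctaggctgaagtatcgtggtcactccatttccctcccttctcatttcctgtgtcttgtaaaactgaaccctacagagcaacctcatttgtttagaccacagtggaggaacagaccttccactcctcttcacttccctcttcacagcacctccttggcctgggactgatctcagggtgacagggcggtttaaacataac
Sh2d1b2 (chr1:170232621-170232920, plus strand): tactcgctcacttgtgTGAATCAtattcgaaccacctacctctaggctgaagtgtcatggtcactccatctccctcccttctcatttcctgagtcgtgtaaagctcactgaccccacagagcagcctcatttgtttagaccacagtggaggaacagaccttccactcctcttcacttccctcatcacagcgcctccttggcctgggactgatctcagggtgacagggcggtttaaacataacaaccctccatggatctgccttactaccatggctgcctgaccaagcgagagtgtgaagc
Slamf7 (chr1:171648950-171649249, minus strand): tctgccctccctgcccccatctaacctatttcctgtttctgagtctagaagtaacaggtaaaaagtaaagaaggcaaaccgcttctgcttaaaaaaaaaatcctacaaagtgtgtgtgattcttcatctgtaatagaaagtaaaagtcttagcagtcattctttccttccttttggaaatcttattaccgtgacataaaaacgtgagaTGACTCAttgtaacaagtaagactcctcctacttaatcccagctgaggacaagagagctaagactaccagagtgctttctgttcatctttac
Slamf1 (chr1:171766882-171767181, plus strand): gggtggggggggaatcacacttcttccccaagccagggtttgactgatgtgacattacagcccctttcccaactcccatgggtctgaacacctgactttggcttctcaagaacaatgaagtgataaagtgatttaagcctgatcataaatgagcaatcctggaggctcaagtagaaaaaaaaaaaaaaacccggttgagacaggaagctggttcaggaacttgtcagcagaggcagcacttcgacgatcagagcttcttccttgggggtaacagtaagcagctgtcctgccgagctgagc
The Sh2d1b1 and Sh2d1b2 windows aligned over 239 bases, of which 221 (92.5%) were identical, and their transcripts were 89.8% identical over 2441 aligned bases. Sh2d1b1 had 2 AP-1 matches, Sh2d1b2 and Slamf7 had 1 each, and Slamf1 had 0. The Sh2d1b2 match, at -234 from its start site, lines up with the Sh2d1b1 match at -173. The position that would match the other Sh2d1b1 site, at -207, lies before the Sh2d1b2 window and was not searched. The counts of this pair therefore cover unequal stretches. Over the 7 member windows, both strands searched, 4 held TGANTCA, which reads the same on both strands apart from its middle base, against 7.81% of 32851 promoter windows in the table. The 4 were those of Sh2d1b1, Sh2d1b2, Slamf7 and Cd84, while Cd48, the member with the highest level per exon length, had no match. The Runx motif TGTGGT was in 4 windows (16.8% of all), the Ets motif GGAAGT in 3 (23.8%), the T-box motif AGGTGT in 2 (13.7%) and the NFAT motif GGAAAA in 0 (23.4%). These are matches of letters, and 2 of the AP-1 windows belong to the near-identical Sh2d1b pair.

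Libraries held 32.1 to 54.2 M reads, so 3 reads, taken as the smallest level that could be shown, were 0.0553 to 0.0933 CPM (reads scaled to a fixed library total). That floor covers counting error only, since no molecular identifiers are named. Ribosomal RNA-like features took 5.13 to 17.8% of reads, with the 2 highest shares in the m3 samples of YFP- (17.8%) and YFP+ cells (15.5%). Ifng followed the sort, with mean log2 CPM of 1.97 in unstimulated, 5.50 in YFP- and 8.36 in YFP+ cells, and Klrb1c, which encodes NK1.1, stood at 8.26, 6.22 and 2.63. All 10 NK markers were tested and summed to 11400 to 14000 CPM in unstimulated samples, with sums of 17900 to 22300 for YFP- and 27100 to 39200 for YFP+. Most of the rise in that sum came from Gzmb (5120 to 6690, 11600 to 13700 and 21100 to 28300 CPM). Ncr1 went from 244 to 249 CPM without stimulation to 105 to 138 for YFP+, Eomes from 102 to 115 to 38.3 to 43.0, and Itga2 and Klrb1c were lower too. Tbx21 went the other way, from 29.0 to 38.5 CPM without stimulation to 62.8 to 115 for YFP+, as did Klrk1, from 183 to 195 to 210 to 274. Prf1, Il2rb and Nkg7 overlapped between unstimulated and YFP+ samples. Markers of T cells summed to 46.2 to 106, 47.2 to 76.3 and 31.8 to 70.5 CPM, mostly from Cd3d, Cd3g and Cd6, with Cd3e at 1.49 CPM or less in every library. B cell markers summed to at most 4.38 CPM, myeloid markers to at most 2.89 CPM, and erythroid and platelet markers to at most 0.247 CPM. Dendritic cell markers summed to 2.26 to 3.67 CPM without stimulation, 18.8 to 22.1 for YFP- and 7.05 to 13.6 for YFP+. That sum came mostly from Zbtb46 (1.33 to 1.76, 13.3 to 17.4 and 5.19 to 11.3 CPM) and Xcr1 (0.828 to 1.84, 3.85 to 6.18 and 1.41 to 2.18). Flt3, Siglech and Cd209a were at 0.37 CPM or less in every library.

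Sh2d1a and Cd48 were called lower in each comparison, Ly9 in both that involve YFP+ cells and Slamf6 in 1, and no member was called higher. In YFP+ against YFP- cells, 3 of the 8 tested members were lower at a Benjamini-Hochberg adjusted p under 0.05 in limma (Ly9, Cd48 and Sh2d1a), beside 18.5% of 12364 genes called lower, and 0 were higher, beside 3.28%. In YFP- against unstimulated cells, 2 of 8 were lower (Cd48 and Sh2d1a), beside 20.9% of genes, and 0 were higher, beside 30.2%. In YFP+ against unstimulated cells, 4 of 8 were lower (Slamf6, Ly9, Cd48 and Sh2d1a), beside 33.3%, and 0 were higher, beside 27.5%. The median log2 fold change of the 8 members was -0.36, -0.11 and -0.66 in these comparisons, beside -0.19, 0.14 and -0.03 over all genes tested. With reporter-positive cells as the first group, all 8 values were below 0 as deposited, but Slamf6 and Sh2d1b2 turned above 0 against YFP- cells under quantile normalization, as did Sh2d1b2 under median centring, and Cd84 and Sh2d1b1 turned above 0 against unstimulated cells under median centring and with sample weights. With only 8 genes, counts of 2, 3 and 4 called lower are too small to be told apart from the shares over all genes. They are read as values of single genes and not as a result about the family. The 3 comparisons share groups and are not independent of each other. In these sorted bulk samples, fewer cells that express a gene and less RNA per cell cannot be told apart. The number of members called in YFP+ against YFP- cells also moved with the scaling of the libraries and with single samples, from 3 to 6 once rRNA-like features were removed from the totals and to 5 without the YFP+ sample m2, while it was 1 in a fit of only the 8 samples compared. In YFP+ against unstimulated cells the number was 2 without the filter and 8 with rRNA-like features, Lars2, Mir6236 and Gm23935 removed from the totals, instead of 4.

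**Figure D1:**
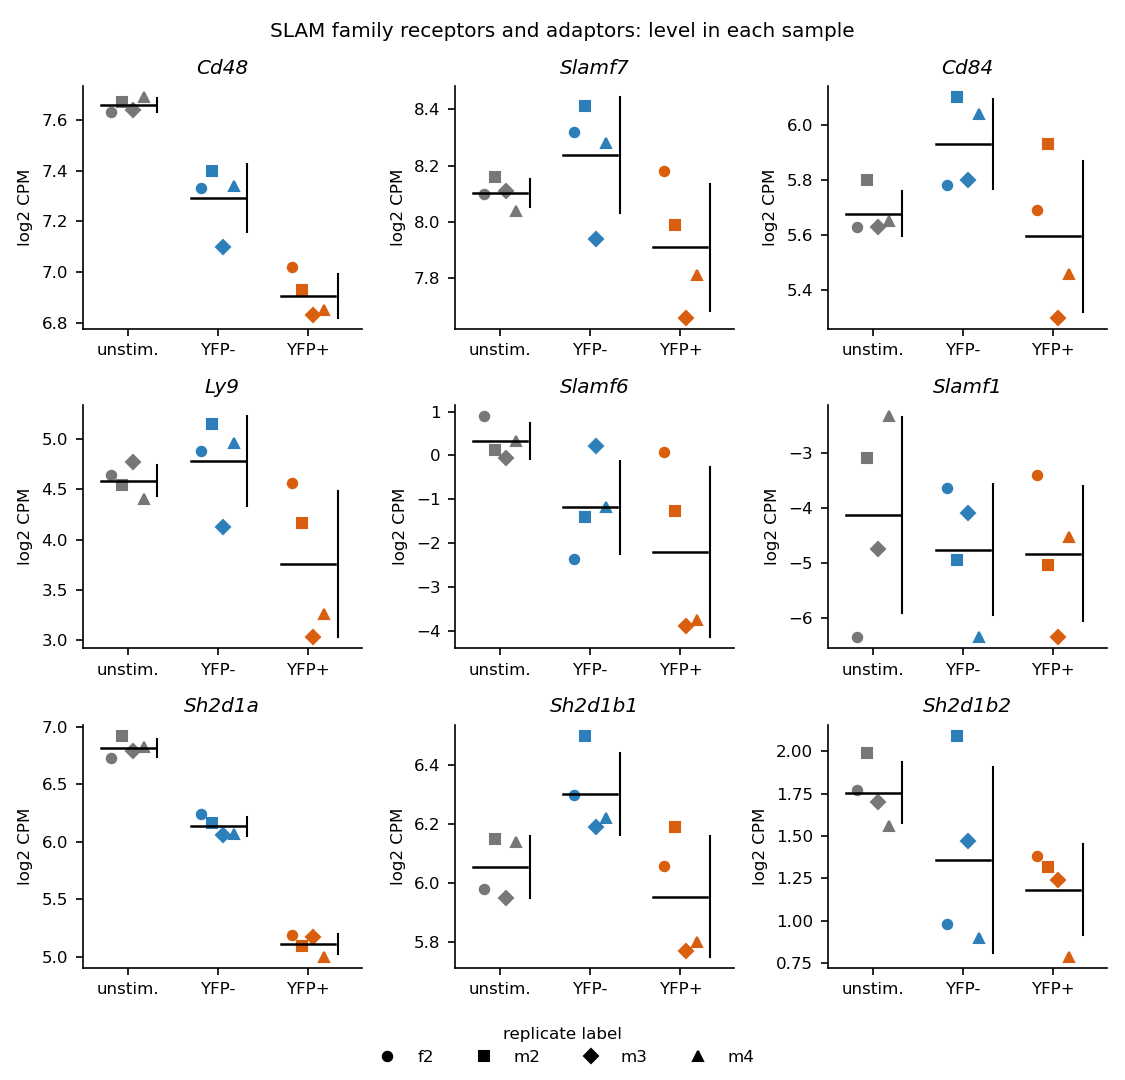
Level of each member in each sample, as deposited log2 CPM, by group (unstimulated, YFP- and YFP+, 4 samples each); symbols are the replicate labels, horizontal bars the means and vertical bars the SD. The Sh2d1a and Cd48 samples form 3 separate bands, while Ly9 and Slamf6 spread widely in the stimulated groups; each panel has its own scale.

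**Figure D2:**
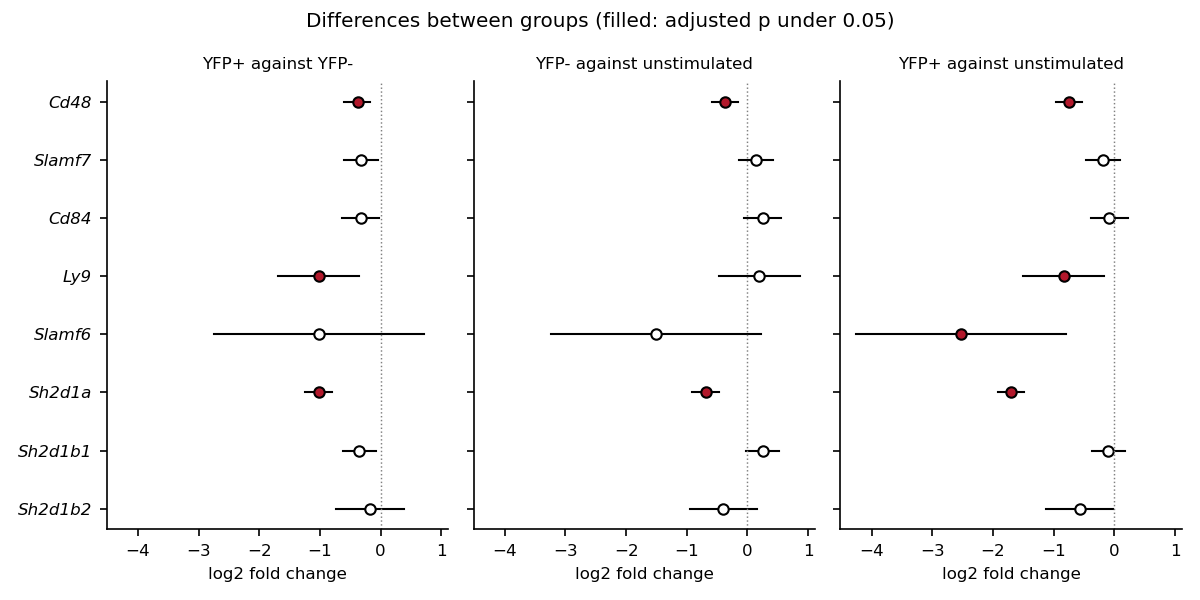
Log2 fold change of the 8 tested members in the 3 comparisons, with 95% intervals from limma over all 12 samples; filled points passed an adjusted p under 0.05. Sh2d1a and Cd48 were called in all 3 comparisons, Ly9 in the 2 that involve YFP+ cells and Slamf6 in YFP+ against unstimulated cells; under median centring Cd48 was not called against YFP- cells.

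Sh2d1a, the SAP adaptor, fell in each comparison, with little spread between samples. Its log2 CPM in f2, m2, m3 and m4 was 6.73, 6.92, 6.79 and 6.82 in unstimulated cells, 6.24, 6.16, 6.06 and 6.07 in YFP- cells, and 5.19, 5.09, 5.17 and 5.0 in YFP+ cells. The 3 groups did not overlap, and within each the samples stayed close together (SD 0.08, n = 4 in each). Sh2d1a fell by 1.02 on the log2 scale in YFP+ against YFP- cells (SE 0.10, adjusted p = 2.4e-05, limma), a 2.02-fold lower level. It fell by 0.69 in YFP- against unstimulated cells (SE 0.10, adjusted p = 9.6e-05) and fell by 1.70 in YFP+ against unstimulated cells (adjusted p = 1.6e-08), a 3.26-fold lower level. All 21 alternative settings called it in each comparison, with log2 values of -1.05 to -0.76, -0.94 to -0.65 and -1.89 to -1.58. A stretch of 26.6% of its exon bases overlaps Tenm1, a gene on the opposite strand, and whether reads were counted by strand is not given in the sources used here. Tenm1 had 0 to 8 reads per library, against 1029 to 4616 for Sh2d1a.

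Sh2d1b1, the EAT-2 adaptor that passes signals from Slamf7 and other receptors in NK cells, did not follow Sh2d1a. Its log2 CPM was 5.98, 6.15, 5.95 and 6.14 in unstimulated cells, 6.30, 6.50, 6.19 and 6.22 in YFP- cells and 6.06, 6.19, 5.77 and 5.80 in YFP+ cells. The YFP- samples were all above the unstimulated ones, and the lowest YFP- and highest YFP+ sample were both at 6.19. Neither difference passed: it was 0.25 (SE 0.13, adjusted p = 0.12, limma) for YFP- against unstimulated cells, and -0.35 (95% interval -0.62 to -0.08, adjusted p = 0.065) for YFP+ against YFP- cells. The value for YFP+ against unstimulated cells was -0.10 (95% interval -0.37 to 0.17, adjusted p = 0.51). Against YFP- cells the call depended on the setting, with an adjusted p of 0.02 once rRNA-like features were removed from the totals and 0.56 under median centring. With sample weights Sh2d1b1 was called higher in YFP- than in unstimulated cells (0.27, adjusted p = 0.042).

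Sh2d1b2, the second EAT-2-like adaptor of the mouse, was at a low level in all groups despite a promoter and transcript close to those of Sh2d1b1. The 12 libraries held 55 to 209 of its reads. Its log2 CPM was 1.77, 1.99, 1.70 and 1.56 in unstimulated, 0.98, 2.09, 1.47 and 0.90 in YFP- and 1.38, 1.32, 1.24 and 0.79 in YFP+ cells. All 4 YFP+ samples were below all unstimulated ones, with a difference of -0.57 that did not pass (SE 0.26, adjusted p = 0.068, limma). It was called in a fit of only the 8 samples compared (adjusted p = 0.031) and once rRNA-like features were removed from the totals (-0.65, adjusted p = 0.04). Per exon length, the Sh2d1b1 level was 19.9 ± 2.85 times that of Sh2d1b2 without stimulation, against 32.0 ± 9.56 times for YFP- and 27.7 ± 4.07 times for YFP+ (SD, n = 4). The pair shares 78 windows of 150 bases, 3.26% of those in Sh2d1b1 and 3.07% of those in Sh2d1b2. A read of that length cannot be assigned to one of them there, so the low Sh2d1b2 level is uncertain by that part. The shared part for other read lengths was not computed.

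The balance between the adaptors differed by group within each sample, in a ratio that does not depend on how libraries are scaled. Sh2d1a per exon length, over Sh2d1b1 per exon length, was 0.779, 0.793, 0.825 and 0.741 in unstimulated samples (mean 0.784 ± 0.0346, SD). The ratio was 0.443, 0.364, 0.420 and 0.416 in YFP- samples (mean 0.411 ± 0.0334) and 0.253, 0.216, 0.304 and 0.266 in YFP+ samples (mean 0.260 ± 0.0363). No sample of one group reached the range of another, so the difference between each pair of groups was larger than the spread within them. Part of the Sh2d1a exons that overlap Tenm1 may be missing from its count, which would lower all 12 ratios.

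**Figure D3:**
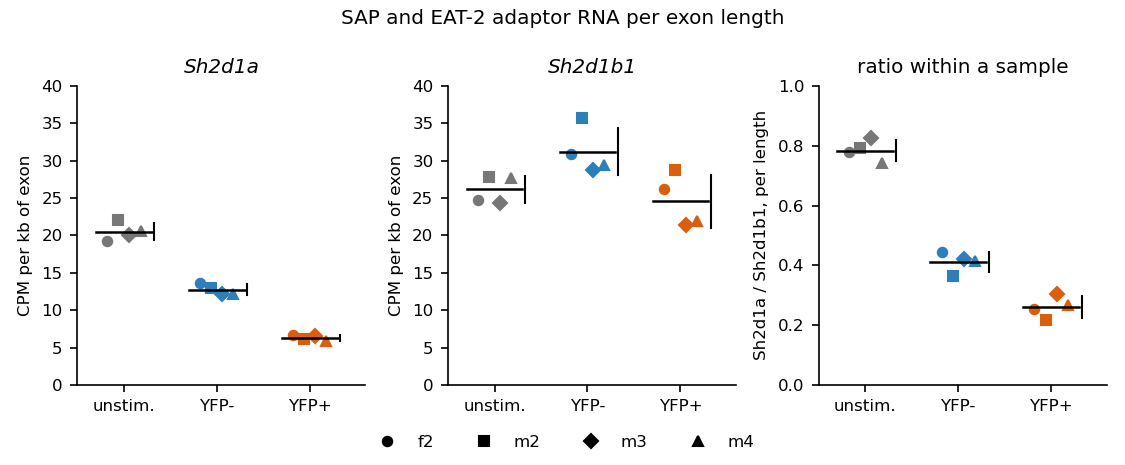
Sh2d1a (SAP) and Sh2d1b1 (EAT-2) in CPM per kb of exon, and their ratio within a sample, by group; symbols are the replicate labels, horizontal bars the means and vertical bars the SD (n = 4). Sh2d1a falls from 20.5 over 12.7 to 6.29 CPM per kb while Sh2d1b1 stays between 21.4 and 35.7, and the ratio falls from 0.784 over 0.411 to 0.260.

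Cd48, the ligand of CD244 and CD2, was lower in each step from unstimulated to YFP- to YFP+ cells. Its log2 CPM was 7.63, 7.67, 7.64 and 7.69 in unstimulated, 7.33, 7.40, 7.10 and 7.34 in YFP- and 7.02, 6.93, 6.83 and 6.85 in YFP+ cells. The groups did not overlap. Cd48 fell by 0.37 in YFP- against unstimulated cells (SE 0.10, adjusted p = 0.0073, limma) and fell by 0.75 in YFP+ against unstimulated cells (SE 0.10, adjusted p = 1.9e-05), the latter a 1.68-fold lower level. It fell by 0.38 in YFP+ against YFP- cells (SE 0.10, adjusted p = 0.014), but this call was lost under median centring (-0.12, adjusted p = 0.36), trimmed-mean scaling (-0.25, adjusted p = 0.054) and in a fit of only the 8 samples compared (adjusted p = 0.061). Median centring moved the median of all genes in that comparison from -0.19 to 0.07.

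Slamf7 (CRACC), an activating receptor of NK cells that signals through EAT-2, and Cd84, a receptor also found on platelets and B cells, passed in no comparison. The log2 CPM of Slamf7 was 8.10, 8.16, 8.11 and 8.04 in unstimulated, 8.32, 8.41, 7.94 and 8.28 in YFP- and 8.18, 7.99, 7.66 and 7.81 in YFP+ cells. That of Cd84 was 5.63, 5.80, 5.63 and 5.65 in unstimulated cells, 5.78, 6.10, 5.80 and 6.04 in YFP- cells and 5.69, 5.93, 5.30 and 5.46 in YFP+ cells. All groups of both genes overlapped, and m3 gave the lowest YFP+ sample of each. In YFP+ against YFP- cells both differed by -0.33, with 95% intervals of -0.61 to -0.05 for Slamf7 (adjusted p = 0.09, limma) and -0.64 to -0.03 for Cd84 (adjusted p = 0.12). Both were lower in the YFP+ sample than in the YFP- sample of the same label in 4 of 4 labels. The labels were not taken as pairs, and the share of all genes with that pattern is not given here. Both were called once rRNA-like features were removed from the totals (adjusted p of 0.017 and 0.044). Cd84 was also called without YFP+ m2 (adjusted p = 0.038) and Slamf7 without YFP+ f2 or YFP- m3 (adjusted p of 0.029 and 0.027). Under median centring both were at -0.07 (adjusted p of 0.63 and 0.67), and under trimmed-mean scaling they were at -0.19 and -0.20 (adjusted p of 0.21 and 0.27). Against unstimulated cells, YFP+ cells differed by -0.19 for Slamf7 (95% interval -0.47 to 0.09) and by -0.08 for Cd84 (95% interval -0.39 to 0.23). Under quantile normalization the Slamf7 value was -0.41 and was called (adjusted p = 0.00088). Slamf7 shares 9.24% of its exon bases with Gm37787, an antisense gene that had 1 to 27 reads per library, against 7227 to 16826 for Slamf7.

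Within each sample, Slamf7 and Cd84 stood higher against Cd48 after stimulation. Slamf7 over Cd48, both per exon length, was 0.354 ± 0.0153 without stimulation, against 0.502 ± 0.0252 for YFP- and 0.522 ± 0.0491 for YFP+ (SD, n = 4). Cd84 over Cd48 was 0.0481 ± 0.00261, 0.0740 ± 0.00608 and 0.0770 ± 0.0124. For both ratios the unstimulated samples lay below all stimulated ones, while the YFP- and YFP+ samples overlapped. Cd48, the divisor, was itself called lower in both stimulated groups, while Slamf7 and Cd84 were called in no comparison as deposited. Cd244a over Cd48 was 0.173 ± 0.0119, 0.188 ± 0.0173 and 0.251 ± 0.0598, and its samples overlapped between all groups.

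Ly9 (CD229), a receptor that binds itself on other lymphocytes, was lower in YFP+ cells but varied between samples. Its log2 CPM was 4.64, 4.54, 4.77 and 4.40 in unstimulated, 4.88, 5.15, 4.13 and 4.96 in YFP- and 4.56, 4.17, 3.03 and 3.26 in YFP+ cells. The m3 and m4 samples of YFP+ cells were far below f2 and m2, m3 was also the lowest YFP- sample, and the groups overlapped. Ly9 fell by 1.02 in YFP+ against YFP- cells (SE 0.31, adjusted p = 0.03, limma) and fell by 0.83 in YFP+ against unstimulated cells (SE 0.31, adjusted p = 0.031). It was lower in the YFP+ sample of the same label in 4 of 4 labels in both comparisons. Labels were not taken as pairs, and the share of all genes with that pattern is not given here. The value for YFP- against unstimulated cells was 0.19 (95% interval -0.47 to 0.86). In a fit of only the 8 samples compared the adjusted p against YFP- cells was 0.076, and without the filter it was 0.22. Without YFP+ m3 the value against YFP- cells was -0.78 (adjusted p = 0.073), and without YFP+ m4 it was -0.86 (adjusted p = 0.095). The call was also lost without YFP- f2, m2 or m4 (adjusted p of 0.077, 0.092 and 0.074), and that against unstimulated cells without YFP+ m3 or m4 or without unstimulated f2, m2 or m3 (adjusted p of 0.052 to 0.095). The rRNA-like share was 15.5% in YFP+ m3 and 7.62% in m4, against 5.13% in f2 and 6.71% in m2, and with these features removed from the totals Ly9 was at -1.06 against YFP- cells (adjusted p = 0.013). The YFP+ m3 and m4 samples were also the lowest YFP+ ones of every other tested member except Sh2d1a. Their libraries held 36.2 and 32.1 M reads, against 48.9 M in f2 and 54.2 M in m2. Whether depth plays a part was not tested.

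Slamf6 (Ly108), a receptor better known from T and B cells, had few reads. The libraries held 70, 41, 38 and 40 Slamf6 reads in unstimulated cells, 8, 18, 50 and 21 in YFP- cells and 51, 22, 2 and 2 in YFP+ cells. The log2 CPM was 0.89, 0.13, -0.05 and 0.32 in unstimulated cells, -2.37, -1.41, 0.22 and -1.18 in YFP- cells and 0.08, -1.26, -3.89 and -3.75 in YFP+ cells. YFP+ f2 and YFP- m3 reached the unstimulated range, so the groups overlapped, while YFP+ m3 and m4 were under the floor of 3 reads. Slamf6 fell by 2.52 in YFP+ against unstimulated cells (SE 0.81, adjusted p = 0.015, limma). With a pseudocount of 1 CPM the value was -0.75 (adjusted p = 0.011), and the call was lost under quantile normalization (-2.07, adjusted p = 0.079) and without the filter (adjusted p = 0.11). Its value was -1.51 in YFP- against unstimulated cells (adjusted p = 0.13), called under 4 of 20 alternative settings. In YFP+ against YFP- cells it was -1.02 (95% interval -2.75 to 0.72, adjusted p = 0.4) and 0.44 under quantile normalization. Slamf6 passed the filter with 3 of its 5 values above 0 from unstimulated cells. Summed B cell markers ran from 1.96 to 4.38 CPM without stimulation, from 0.991 to 2.88 for YFP- and from 0.663 to 1.41 for YFP+, and T cell markers as given above, against 0.0552 to 1.84 CPM for Slamf6. The part of other cells in the Slamf6 value was not tested. Slamf1 (CD150) had 0, 4, 1 and 6 reads in unstimulated, 3, 1, 2 and 0 in YFP- and 4, 1, 0 and 1 in YFP+ libraries, mostly at or under 3 reads, so no fold is given.

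Ranked by CPM per kb of exon, the order was Cd48, Slamf7, Sh2d1b1, Sh2d1a, Cd84, Ly9, Sh2d1b2, Slamf6 and Slamf1 in unstimulated cells, with means of 170, 60.1, 26.2, 20.5, 8.17, 7.29, 1.33, 0.118 and 0.0128. Only Cd84 and Ly9 overlapped as neighbours in that order. The order was the same in YFP- cells, where Cd48 stood at 132 ± 11.8 and Slamf7 at 66.5 ± 8.94 CPM per kb (SD, n = 4). In YFP+ cells Sh2d1a, at 6.29 ± 0.366, dropped below Cd84, at 7.81 ± 1.50, but the samples of the 2 genes overlapped, as did those of Sh2d1a and Ly9 (4.48 ± 2.21) and of Slamf6 and Slamf1. Cd48 (101 ± 6.27) and Slamf7 (53.0 ± 8.23) remained the first and second. These ranks depend on the length used, which joins all annotated exons of a gene. In mean CPM without length, Slamf7 was above Cd48 in unstimulated (275 against 202), YFP- (304 against 157) and YFP+ cells (243 against 120). Sh2d1a was above Sh2d1b1 in unstimulated cells (113 against 66.6), but below it in YFP- (70.1 against 79.3) and YFP+ cells (34.6 against 62.5).

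Genes that act with the family were taken from a list of 21, of which 18 were tested. In YFP+ against YFP- cells 9 of the 18 were lower, beside 18.5% of all genes, and 1 was higher, beside 3.28%, with a median log2 fold change of -0.65 beside -0.19 over all genes. In YFP- against unstimulated cells 7 were lower, beside 20.9%, and 4 higher, beside 30.2% (median -0.16 beside 0.14). In YFP+ against unstimulated cells 9 were lower, beside 33.3%, and 2 higher, beside 27.5% (median -0.36 beside -0.03). The list's count in YFP+ against YFP- cells was 10 as deposited, 4 without the filter, 6 in a fit of only the 8 samples compared and 5 without YFP+ m4. Slamf8, Slamf9 and Plcg1 had at most 21 reads in any library and were not tested.

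Among the receptors that bind CD48, Cd2 was called lower in YFP+ cells and Cd244a was called in no comparison. Cd2, an adhesion receptor, was at 6.97, 7.09, 6.89 and 7.27 log2 CPM in unstimulated, 6.93, 7.15, 6.98 and 6.89 in YFP- and 6.18, 6.05, 5.81 and 5.96 in YFP+ cells. The YFP+ samples were below all others, and Cd2 fell by 0.99 against YFP- cells (SE 0.12, adjusted p = 9.4e-05, limma) and fell by 1.05 against unstimulated cells (adjusted p = 4.9e-06). Cd244a (2B4), which can activate or inhibit NK cells, was at 7.19, 7.18, 7.22 and 7.05 in unstimulated, 7.03, 7.11, 6.74 and 6.75 in YFP- and 7.24, 7.30, 6.39 and 6.74 in YFP+ cells. Its YFP+ samples fell on both sides of the YFP- ones, with f2 and m2 high and m3 low, and the difference was 0.01 (95% interval -0.38 to 0.40). Cd244a differed by -0.25 in YFP- and -0.24 in YFP+ cells against unstimulated cells, neither of which passed (adjusted p = 0.26 for both), although both were called under quantile normalization (-0.49 and -0.41, adjusted p of 0.0042 and 0.01).

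Of 9 tested genes of activating signals, 3 were lower (18.5% over all genes) and 1 higher (3.28%) in YFP+ against YFP- cells. In YFP- against unstimulated cells 4 were lower (20.9%) and 1 higher (30.2%), and in YFP+ against unstimulated cells 5 were lower (33.3%) and 1 higher (27.5%). Counts over so few genes are a description only. Mapk3, the ERK1 kinase, had the largest fall of the 9 in YFP+ against unstimulated cells. Mapk3 stood at a log2 CPM of 6.25, 6.14, 6.12 and 6.13 without stimulation, 5.10, 4.86, 4.46 and 4.15 in YFP- cells and 3.68, 3.48, 3.32 and 2.90 in YFP+ cells. Its groups did not overlap, and it fell by 2.82 in YFP+ against unstimulated cells (SE 0.21, adjusted p = 8.1e-08, limma). The kinase Lck fell by 1.47 in that comparison (adjusted p = 0.00033). Plcg2, a phospholipase of activating receptors, fell by 1.55 (adjusted p = 3.1e-06). Prkcq, protein kinase C theta, fell by 1.23 (adjusted p = 4.2e-05). Between the stimulated groups Lck fell by 0.87 and Prkcq fell by 0.53 (adjusted p of 0.035 and 0.049), calls that only 12 and 9 of the 21 alternative settings kept. Fyn, the kinase that SAP recruits, was the 1 gene of the list that was higher in YFP+ than in YFP- cells, named here after its values were seen. Fyn stood at 6.36, 6.35, 6.38 and 6.67 log2 CPM in unstimulated, 6.67, 6.54, 6.35 and 6.56 in YFP- and 6.74, 7.09, 7.01 and 7.52 in YFP+ cells. The YFP+ samples of Fyn were above all others, and it rose by 0.56 against YFP- cells (SE 0.15, adjusted p = 0.02), the opposite direction to Sh2d1a. That Fyn call was lost without YFP+ m4 (0.41, adjusted p = 0.059), without YFP- m3 (adjusted p = 0.051), in a fit of only the 8 samples compared (adjusted p = 0.053) and without the filter (adjusted p = 0.11). The Fyn rise of 0.65 against unstimulated cells was called under all 21 settings. Bcl10, which links protein kinase C to NF-kappaB, rose by 1.18 in YFP- against unstimulated cells (SE 0.28, adjusted p = 0.0034). In YFP+ cells Bcl10 was at -0.81 against YFP- cells (adjusted p = 0.059) and 0.38 against unstimulated cells (adjusted p = 0.27), neither of which passed. The value against YFP- cells was called under 6 of the 21 alternative settings.

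Of 7 genes of inhibitory signals, all tested, 5 were lower in YFP+ against YFP- cells (18.5% over all genes) and 0 higher (3.28%). In YFP- against unstimulated cells 3 were lower (20.9%) and 3 higher (30.2%), and in YFP+ against unstimulated cells 3 were lower (33.3%) and 1 was higher (27.5%). Inpp5d, which encodes SHIP-1, was at 5.79, 5.90, 6.04 and 5.99 log2 CPM in unstimulated, 4.98, 5.23, 4.72 and 4.75 in YFP- and 4.06, 4.16, 4.08 and 4.06 in YFP+ cells. Its groups were separate, and it fell by 1.84 in YFP+ against unstimulated cells (SE 0.13, adjusted p = 6.5e-08, limma). Dok2, an adaptor that restrains Ras signalling, fell by 2.01 in YFP- and fell by 2.78 in YFP+ cells against unstimulated cells (adjusted p of 1.1e-06 and 2e-08). Csk, the kinase that switches off Src-family kinases, had values of -1.0 and -1.42 in the same comparisons, both lower (adjusted p of 5.1e-05 and 1e-06). Its difference between YFP+ and YFP- cells, -0.42 (adjusted p = 0.041), was called under 8 of the 21 alternative settings.

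Ptpn6, which encodes SHP-1, went the other way from unstimulated to YFP- cells. Its log2 CPM was 6.73, 6.59, 6.70 and 5.94 in unstimulated, 8.60, 8.74, 8.29 and 8.36 in YFP- and 8.00, 8.07, 6.58 and 7.29 in YFP+ cells. The YFP- samples were above all others, and YFP+ m3 lay within the unstimulated range. Ptpn6 rose by 2.0 in YFP- against unstimulated cells (SE 0.29, adjusted p = 7.2e-05, limma), and in YFP+ cells it fell by 1.01 against YFP- cells (SE 0.29, adjusted p = 0.022) but rose by 0.99 against unstimulated cells (adjusted p = 0.0083). The call against YFP- cells was lost without YFP+ m4 or without YFP- f2 or m2 (adjusted p of 0.062, 0.062 and 0.066). Without the filter both YFP+ calls of Ptpn6 were lost (adjusted p of 0.19 against YFP- and 0.083 against unstimulated cells). Dok1 and Rasa1, 2 further inhibitors of Ras signalling named after their values were seen, rose by 0.60 and 0.42 in YFP- against unstimulated cells (adjusted p of 0.0045 and 0.024). Of the 21 alternative settings, 21 called Dok1 and 13 called Rasa1, which was lost under median centring (0.29, adjusted p = 0.11). In YFP+ against YFP- cells Dok1 fell by 0.88 (adjusted p = 0.0011, limma), a call kept by all 21 alternative settings. Rasa1 was at -0.09 there (adjusted p = 0.7). In YFP+ against unstimulated cells Dok1 was at -0.28 and Rasa1 at 0.34, neither of which passed (adjusted p of 0.13 and 0.056).

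**Figure D4:**
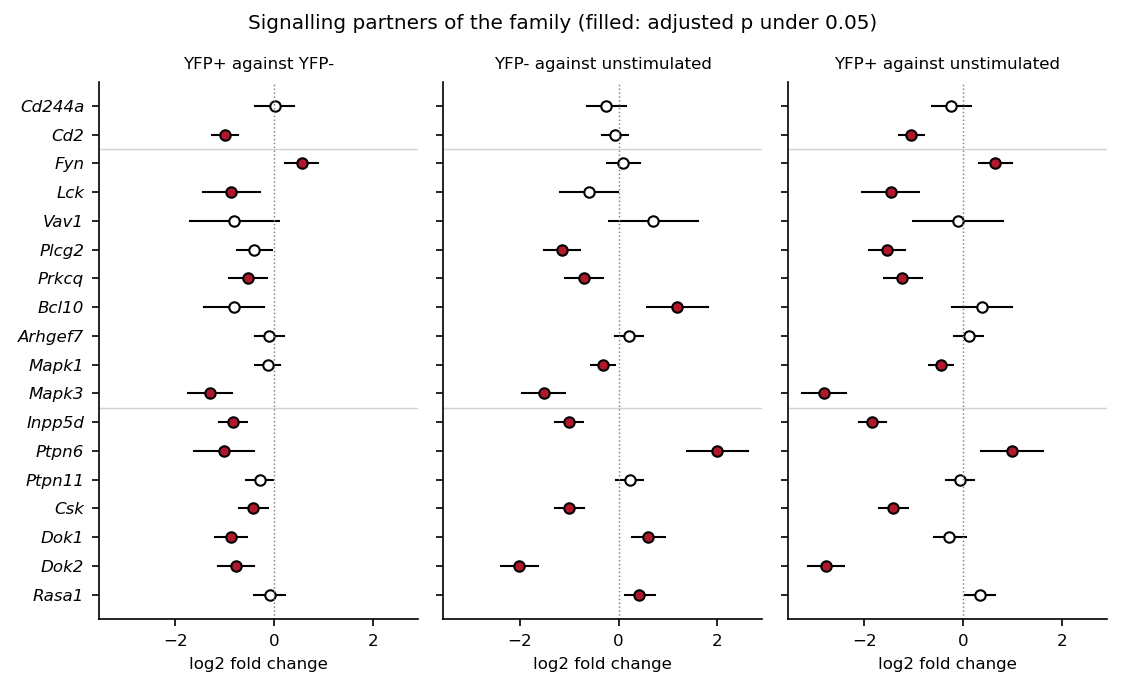
Log2 fold change of the 18 tested partners of the family in the 3 comparisons, with 95% intervals from limma over all 12 samples; filled points passed an adjusted p under 0.05. Grey lines part receptors (top), activating and inhibitory genes (bottom); Mapk3, Inpp5d and Dok2 are lower in all 3 comparisons, and Ptpn6 is higher in YFP- than in unstimulated cells and lower in YFP+ than in YFP- cells.

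For the 3 members called at a log2 fold change of 1 or more in size (Sh2d1a, Ly9 and Slamf6), the genes of most similar pattern were those with the smallest root mean square difference in log2 CPM over the 12 samples, after each gene was centred on its mean, among 8101 protein-coding genes. For Sh2d1a they were Psmb10 (0.12), Cirbp (0.15) and Cep192 (0.15), against a spread of Sh2d1a about its own mean of 0.70. Psmb10, a subunit of the immunoproteasome, went from a mean of 8.01 over 7.48 to 6.48 log2 CPM, and Cirbp, an RNA-binding protein induced by cold, from 6.23 over 5.76 to 4.72. Ly9 was nearest to Pcif1 (0.14), Pde4a (0.16) and Dym (0.18), against its own spread of 0.62. For Slamf6 the nearest genes, Gsn (0.78), Rbm43 (0.91) and Lzts1 (0.92), were less close, against its own spread of 1.53. The compared genes had to pass a minimum mean level above the Slamf6 means of 0.32, -1.19 and -2.2 log2 CPM, so no gene at its level was compared. These likenesses are descriptions over samples that share their library with the member, with no test.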

How the data were processed

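Moderated log2 CPM values for 12 samples stood in 1 table deposited by the authors, per the file headers (55774 lines, of which 287 repeated an identifier and were dropped). STAR 2.7.9a, featureCounts 2.0.3 and the build GRCm38 are named in the submitters' processing notes. The deposited log2 values equal read counts plus a prior of 0.5 reads, scaled to the library, to within 5.15e-14, so whole reads were recovered for 100% of values (within 0.01 reads). There were 0 columns of no sample. The 12364 genes that had 4 or more samples above a log2 CPM of 0 were fitted together in limma 3.58.1 (R 4.3.3), with 1 coefficient per group and an intensity trend, and a gene was called where its Benjamini-Hochberg adjusted p was below 0.05. The fit was also run on simulated data, with an outcome that is not given here and was not used for the calls. Positions and exon lengths come from GENCODE M21. Other steps used Python 3.11.15, pandas 2.3.3 and Biopython 1.88.

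The genes named were all 9 members, Cd244a, the pathway genes called at a log2 fold change of 1 or more in size, the 3 genes nearest in pattern to each member called at that size, and Ifng and Klrb1c. Fyn, Dok1, Rasa1 and the cluster's neighbours fall outside this rule and were named after their values were seen. Members and lists were chosen with earlier results of these data known. The same-label samples were not treated as pairs. Alternatives were a replicate block, 8 samples only, other filters, pseudocount, scalings and models, and leaving out each sample. A set of totals without 356 rRNA-like features, Lars2, Mir6236 and Gm23935 was added after seeing the data.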

Additional observations from a re-analysis of the deposited data

Results flagged for a closer look

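Cd84 in unstimulated cells had 1 sample apart from the others: m2 was at 5.80 log2 CPM, against 5.63 to 5.65 in f2, m3 and m4, and its gap to the nearest sample was 0.87 of the whole range, above the 95% critical value of Dixon's test for 4 samples. Over the 9 members and Cd244a, 30 sets of 4 samples were examined and 1 passed this limit, while chance flags about 1 in 20, or 1.5 of 30.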

How the results depend on the processing

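The same direction and side of the threshold were kept by 440 of 498 member values under the alternative settings, with 18 calls lost, 28 gained and 12 reversed. Members called in YFP+ against YFP- cells numbered 3 as deposited, 5 with the replicate block, 1 with only the 8 samples compared, 6 with rRNA-like features left out (also 6 when Lars2, Mir6236 and Gm23935 were left out too) and 2 to 5 leaving out single samples. In YFP- against unstimulated cells the number was 2, and 4 with sample weights. In YFP+ against unstimulated cells it was 4, but 2 without the filter and 8 with rRNA-like features and the 3 others left out, a setting that lowered the median of all genes from -0.03 to -0.21. Pathway genes called in YFP+ against YFP- cells numbered 10, but 6 with only 8 samples, 4 without the filter and 5 to 11 leaving out single samples. The cause of these moves was not tested.

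Each reversed value belonged to a comparison in which its gene was not called. In YFP+ against YFP- cells they were Slamf6 at 0.44 and Sh2d1b2 at 0.19 under quantile normalization, Sh2d1b2 at 0.08 under median centring and -0.33 to 0.06 leaving out single samples, and Cd244a at -0.03 with rRNA-like features left out and -0.12 to 0.19 leaving out single samples. Rasa1 in the same comparison was at 0.06 under quantile normalization, 0.17 under median centring, 0.05 under trimmed-mean scaling and -0.19 to 0.01 leaving out single samples. In YFP- against unstimulated cells Slamf7 was at -0.13 under quantile normalization, 0.00 under median centring and -0.05 with rRNA-like features and the 3 others left out, and Cd2 at -0.12 to 0.00 leaving out single samples. Fyn in that comparison was at -0.16, -0.05 and -0.09 under the 3 settings given for Slamf7. In YFP+ against unstimulated cells median centring gave Cd84 at 0.04 and Sh2d1b1 at 0.02, sample weights gave 0.09 and 0.04, and leaving out single samples gave Cd84 at -0.19 to 0.02.

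The correlation of deviations between samples of the same label ranged from 0.0539 to 0.374 for YFP+ and YFP- cells and from -0.0587 to 0.375 over all 3 comparisons. Since not every pair was above 0.1, the labels were not taken to pair samples. The replicate block called Slamf7 (adjusted p = 0.048, limma) and Sh2d1b1 (0.041) in YFP+ against YFP- cells and Sh2d1b2 (0.038) in YFP+ against unstimulated cells, and ended no member's call. Depth limits Slamf6 and Slamf1, which had at most 70 reads in a library.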

Other observations

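Values of some genes beside the receptor cluster on chromosome 1, named here after their values were seen, are given as a description. Usf1, a transcription factor gene (chr1:171411313-171419142), fell by 0.96 in YFP+ against YFP- cells (adjusted p = 0.0035, limma) and fell by 1.27 in YFP+ against unstimulated cells (adjusted p = 7.6e-05). F11r, which encodes a junctional adhesion molecule, and Alyref2 were lower in YFP+ than in YFP- cells, at -1.32 and -0.76 (adjusted p of 0.038 and 0.023). On the other side of the cluster, Ncstn, Copa and Pex19 passed in no comparison, with values of -0.40, 0.10 and -0.35 in YFP+ against YFP- cells. These values were not recomputed under the other settings.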
